A study of Mus musculus with 12 samples.

Results

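The genes described here are 40 genes of the autophagy machinery and its cargo receptors, 40 of the 12988 genes in the deposited table. They are a list of gene symbols whose rule uses no measured value, although the list was chosen with earlier results of these data known, and all 40 were present and passed the filter on low values (0.5 FPKM as the lowest mean of the 12 libraries, reached by 12279 genes). RNA was sequenced from mouse embryonic fibroblasts (MEF), connective tissue cells grown from mouse embryos, in 12 libraries of 4 groups with 3 libraries each. The groups were HSF1 KO MEF with LiCl, HSF1 KO MEF without LiCl, WT MEF with LiCl and WT MEF without LiCl. LiCl (20 mM for 48 h) inhibits the kinase GSK3β and so stabilises β-catenin, and the comparisons ask how LiCl changed these transcripts and whether the change differed in HSF1 KO cells. HSF1 is the main transcription factor of the heat shock response. The labels call the cells HSF1 KO, while the study's text also describes the LiCl-treated MEF as HSF1+/−, so a full loss of HSF1 is not taken as given. None of the sources used here gives the deleted part of Hsf1, the number of knockout clones, the embryos behind each line or the treatment of cells without LiCl. In each group 1 library has the number 1, 1 the number 2 and 1 no number, and values are given in that order. No source says that they came from separate cultures. The p-values therefore set differences of group means against the spread of these libraries only. That may be a technical spread, so they cannot be carried over to new cultures or lines.

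Autophagy encloses cytoplasm in a double membrane, the autophagosome, and delivers it to the lysosome for breakdown. The ULK kinase complex starts the process, the class III phosphatidylinositol 3-kinase complex makes the lipid PI3P where the membrane forms, ATG9 vesicles and ATG2 lipid transfer proteins supply lipid, and 2 ubiquitin-like conjugation systems attach ATG8 proteins (LC3 and GABARAP) to the growing membrane. Cargo receptors such as p62 bind ubiquitinated proteins or damaged organelles on one side and ATG8 proteins on the other. In fibroblasts the pathway runs at a low basal rate and is raised by starvation and by stress, and some of its transcripts are targets of the lysosomal MiT/TFE factors. These data hold RNA levels and do not measure autophagic flux.

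The values are FPKM (fragments scaled to transcript length and library size), summed here over the transcripts of a gene, and the whole table summed to 344208 to 370025 FPKM per library. The Pearson correlation of log2(FPKM + 1) between libraries of 1 group was 0.976 to 0.983, against 0.823 to 0.933 between groups. Hsf1 itself had 3.65, 7.64 and 5.92 FPKM in LiCl-treated HSF1 KO MEF, against 14.5, 13.3 and 11.2 FPKM in LiCl-treated WT MEF. Without LiCl it had 0.939, 3.89 and 2.07 FPKM in HSF1 KO MEF, against 11.1, 7.96 and 8.17 FPKM in WT MEF (log2 fold change -1.70, standard error 0.31, adjusted p = 0.00142). Thus Hsf1 RNA was lower but not absent in the knockout libraries (with LiCl, adjusted p = 0.0159), and whether these reads lie in the deleted part is not known. All 10 fibroblast markers searched (Col1a1, Vim, Thy1 and others) were in the table, with 4 of 6 epithelial, 0 of 5 endothelial, 2 of 5 muscle and 2 of 5 adipocyte markers. Of 12 macrophage markers, 12 were higher in untreated HSF1 KO MEF than in untreated WT MEF (median log2 fold change 3.27), with a summed level of 1356 to 1567 FPKM in untreated HSF1 KO MEF, against 116 to 123 FPKM in untreated WT MEF. LiCl-treated HSF1 KO MEF had a sum of 103 to 118 FPKM and LiCl-treated WT MEF of 40.9 to 44.8 FPKM. The defining markers Aif1 and Ptprc were listed at 0 in every library other than those of untreated HSF1 KO MEF, where Ptprc had 3.57, 3.69 and 3.94 FPKM. In bulk RNA, fewer cells of a type and less RNA per cell cannot be told apart.

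The promoters of the members were read for the letters of elements that are known to be bound by factors of stress and lysosomal programs. RefSeq (GRCm38.p6) windows of 300 bases, from 250 bases before to 50 after the start of a transcript, were held for 33 of the 40 members, in 39 windows. GAANNTTC, the inverted repeat at the core of the heat shock element, occurred in the windows of 2 of 33 members (6.06%), Vmp1 and Optn, against 6.83% of 9601 tested genes and 7.86% of all 32851 windows. CACGTG, an E-box and the core of the lysosomal CLEAR element, occurred in 5 of 33 members (15.2%), Atg3, Atg5, Atg7, Atg14 and Bnip3, against 11.7% of tested genes and 7.15% of all windows. The Atg7 window (chr6:114670846-114671145) lies inside the gene. All 3 Atg7 transcripts measured here start at chr6:114643097 to 114643129, so this match is at the start of none of them. The longer form TCACGTGA, which overlaps CACGTG, was found in 1 member (3.03%), Atg3, against 2.23% of tested genes and 0.974% of all windows. TGATGNAA, the ATF4 element, was in 0 of 33 members, against 2.65% of tested genes and 3.97% of all windows. Members and tested genes were counted when any of their windows matched, so the shares of single windows are a different measure. Counted by gene, the shares over all 27025 genes with a window were 9.04% (GAANNTTC), 8.09% (CACGTG), 1.125% (TCACGTGA) and 4.51% (TGATGNAA). Both strands were searched, and a match is a string of letters and not a measured binding site. The 6 windows printed here belong to the receptors with the largest differences between the LiCl responses among the 11 members called in that test (Sqstm1 and Calcoco1), to 2 members with CACGTG that moved in opposite directions with LiCl (Atg14 and Bnip3) and to the 2 members with GAANNTTC (Optn and Vmp1). Each is 5′ to 3′ on the strand of the gene, and capitals mark the motifs. In Atg14 the motif began 1 base before the start, in Bnip3 108 bases before it, in Vmp1 169 bases before the start of the most downstream of its 3 windows and in Optn 17 bases after the start.
Sqstm1 (chr11:50210771-50211070, reverse strand): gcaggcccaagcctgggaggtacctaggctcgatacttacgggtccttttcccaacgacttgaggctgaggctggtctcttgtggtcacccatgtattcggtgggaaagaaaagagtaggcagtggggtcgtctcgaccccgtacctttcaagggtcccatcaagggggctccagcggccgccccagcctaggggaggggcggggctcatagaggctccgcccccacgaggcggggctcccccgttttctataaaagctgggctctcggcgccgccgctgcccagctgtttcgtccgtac
Calcoco1 (chr15:102722129-102722428, reverse strand): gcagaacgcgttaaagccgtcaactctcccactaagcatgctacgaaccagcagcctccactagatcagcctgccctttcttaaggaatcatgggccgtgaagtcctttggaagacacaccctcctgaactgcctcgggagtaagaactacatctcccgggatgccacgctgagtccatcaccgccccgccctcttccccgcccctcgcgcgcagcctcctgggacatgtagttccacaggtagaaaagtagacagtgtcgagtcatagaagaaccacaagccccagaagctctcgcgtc
Atg14 (chr14:47568385-47568684, reverse strand): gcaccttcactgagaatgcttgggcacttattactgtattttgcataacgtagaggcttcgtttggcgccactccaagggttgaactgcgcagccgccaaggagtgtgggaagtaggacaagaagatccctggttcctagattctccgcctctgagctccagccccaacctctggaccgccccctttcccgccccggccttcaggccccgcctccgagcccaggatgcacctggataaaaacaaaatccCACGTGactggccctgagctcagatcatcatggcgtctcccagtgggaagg
Bnip3 (chr7:138909457-138909756, reverse strand): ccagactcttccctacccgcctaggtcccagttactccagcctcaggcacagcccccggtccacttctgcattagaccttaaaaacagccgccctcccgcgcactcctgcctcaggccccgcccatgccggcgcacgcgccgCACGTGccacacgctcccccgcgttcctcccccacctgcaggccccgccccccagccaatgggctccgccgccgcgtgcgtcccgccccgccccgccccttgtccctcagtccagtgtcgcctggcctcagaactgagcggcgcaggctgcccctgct
Optn (chr2:5064068-5064367, reverse strand): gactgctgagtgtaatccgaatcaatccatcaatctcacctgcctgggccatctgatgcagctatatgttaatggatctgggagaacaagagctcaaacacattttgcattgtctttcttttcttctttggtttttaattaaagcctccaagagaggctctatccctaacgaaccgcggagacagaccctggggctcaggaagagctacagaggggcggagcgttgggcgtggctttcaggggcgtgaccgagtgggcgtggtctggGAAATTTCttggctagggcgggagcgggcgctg
Vmp1 (chr11:86671132-86671431, reverse strand): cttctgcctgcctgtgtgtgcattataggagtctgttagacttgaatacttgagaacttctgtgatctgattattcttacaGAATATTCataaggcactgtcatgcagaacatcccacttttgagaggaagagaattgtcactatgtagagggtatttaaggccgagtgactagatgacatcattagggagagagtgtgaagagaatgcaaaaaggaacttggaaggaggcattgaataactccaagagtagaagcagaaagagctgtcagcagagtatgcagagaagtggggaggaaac

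LiCl changed 20 of the 40 autophagy genes in HSF1 KO MEF and 24 in WT MEF, in both directions. In HSF1 KO MEF 11 of 40 members rose (27.5%) and 9 fell (22.5%) with LiCl (limma, adjusted p under 0.05), against 36.5% of all genes tested that rose and 21.1% that fell. In WT MEF 14 rose (35%) and 10 fell (25%), against 38.1% and 27.1% of all genes tested. The shares of members thus lay near or below those of all genes. Ulk1, Atg14, Ambra1, Atg2b, Atg4d, Atg5, Atg12, Gabarapl2 and Sqstm1 rose in both genotypes, and Ulk2, Rb1cc1, Atg13, Wipi1, Vmp1, Map1lc3a, Gabarapl1 and Bnip3 fell in both. No member rose in one genotype and fell in the other. With each library left out in turn, 15 of the 20 calls in HSF1 KO MEF and 24 of 24 in WT MEF passed every time. The calls lost in HSF1 KO MEF (Rb1cc1, Atg13, Atg2a, Atg4a and Atg7) are given with their genes. The median log2 fold change of the members was 0.06 in HSF1 KO MEF and 0.07 in WT MEF, and that of all genes tested was 0.16 in HSF1 KO MEF and 0.13 in WT MEF. After median-of-ratios scaling the median of all genes was -0.01 in HSF1 KO MEF and -0.02 in WT MEF, and 8 members then passed as higher and 17 as lower in HSF1 KO MEF, and 11 and 12 in WT MEF. Quantile normalization gave 10 higher and 13 lower members in HSF1 KO MEF and 11 and 12 in WT MEF. The shares of all genes above were counted without either scaling, so they are no measure for the counts under these scalings. No called member changed direction under either scaling. Of 10 fibroblast markers 8 fell in HSF1 KO MEF, where they summed to 1773 to 1867 FPKM with LiCl, against 3903 to 4157 FPKM without. In WT MEF 9 of 10 fell, with sums of 1452 to 1613 FPKM with LiCl, against 4651 to 5421 FPKM without. All 12 macrophage markers fell in HSF1 KO MEF, and in WT MEF 7 of 12 fell and 2 rose. The 3 epithelial markers tested rose in both genotypes, and those in the table summed to 33.0 to 36.4 FPKM with LiCl, against 3.32 to 5.04 FPKM without, in HSF1 KO MEF. In WT MEF they summed to 25.7 to 28.5 FPKM with LiCl, against 7.99 to 9.79 FPKM without. Krt8, in the table but below the filter and so not tested, went the other way in WT MEF. It had 0.326 ± 0.180 FPKM with LiCl, against 0.714 ± 0.155 FPKM without, in WT MEF, and 0.0515 ± 0.0507 FPKM, against 0 FPKM, in HSF1 KO MEF (SD, n = 3). Epcam and Cdh1 were not in the table. Both adipocyte markers tested fell in both genotypes, with sums of 8.01 to 9.80 FPKM with LiCl, against 51.6 to 52.7 FPKM without, in HSF1 KO MEF. Their sums in WT MEF were 19.5 to 21.8 FPKM with LiCl, against 121 to 128 FPKM without. The part of these markers in the changes of the members was not tested.

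**Figure D1:**
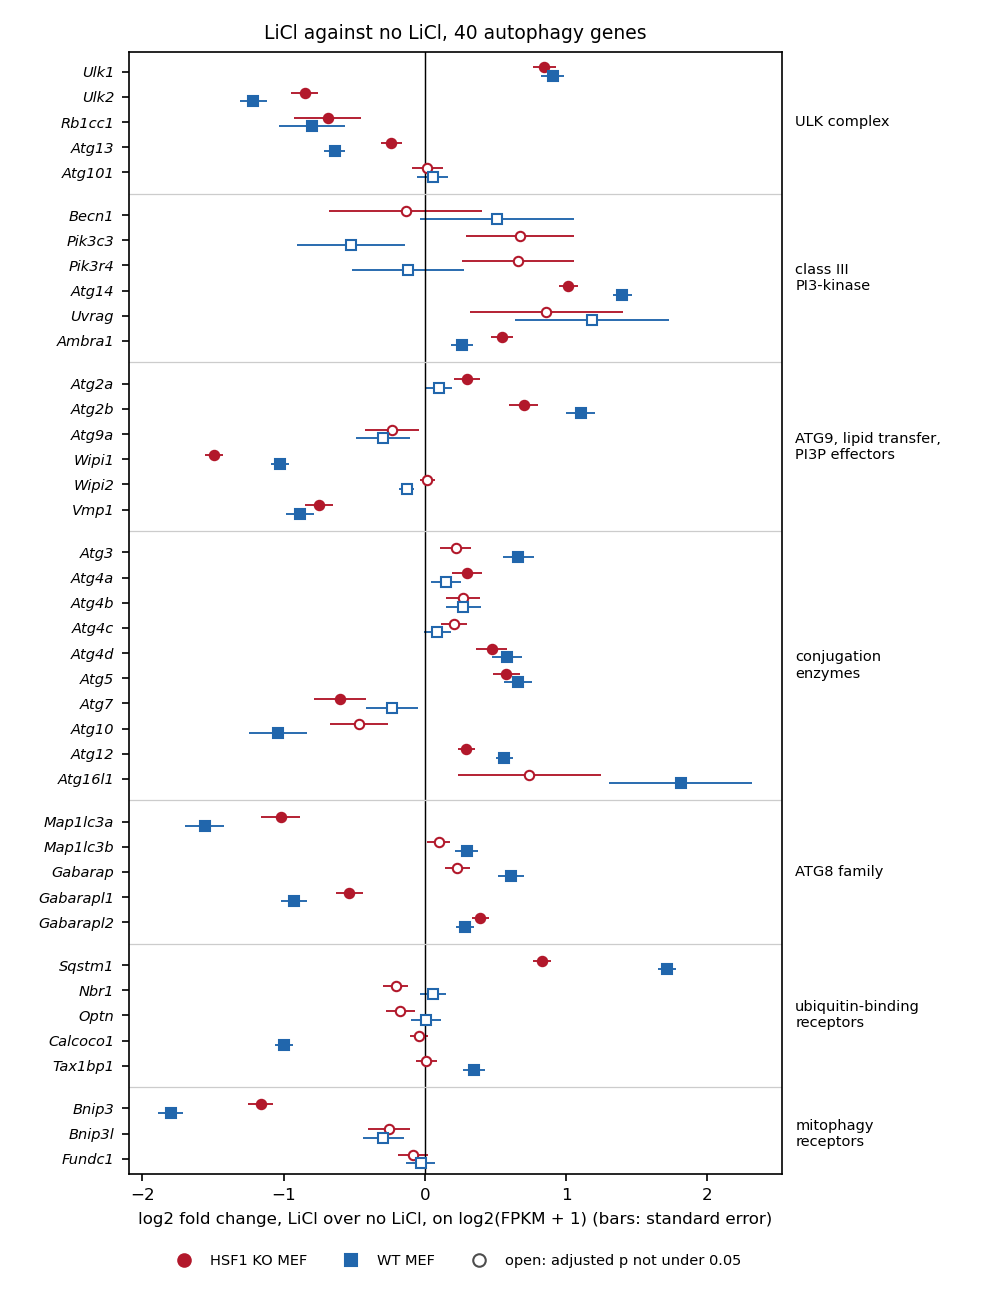
Log2 fold change with LiCl over without LiCl (x axis, on the log2(FPKM + 1) scale) of the 40 members, 1 row per gene and grouped by role, in HSF1 KO MEF (circles) and WT MEF (squares), with standard errors as bars and open symbols where the adjusted p from limma was not under 0.05. Bnip3 lies at -1.16 in HSF1 KO MEF and -1.80 in WT MEF, Sqstm1 at 0.83 and 1.72, and Calcoco1 at -0.04 and -0.995.

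Among the genes of the ULK complex, the kinase genes Ulk1 and Ulk2 moved in opposite directions with LiCl in both genotypes. Ulk1 (ENSMUSG00000029512, chr5:110784488-110810097 of GRCm38), which encodes the kinase that starts autophagy, had 19.2, 18.7 and 18.2 FPKM in LiCl-treated HSF1 KO MEF, against 10.1, 9.84 and 9.95 FPKM in untreated HSF1 KO MEF. Its WT libraries had 20.6, 21.8 and 22.8 FPKM with LiCl, against 11.1, 12.6 and 9.86 FPKM without. The libraries with and without LiCl did not overlap, and Ulk1 rose by 0.85 (standard error 0.08, adjusted p = 6.68e-06) on the log2 scale in HSF1 KO MEF and by 0.90 (standard error 0.08, adjusted p = 2.48e-06) in WT MEF. With its leading transcript only, the WT value was 0.52 (adjusted p = 0.0662). Ulk2 (chr11:61775649-61855073), the gene of a closely related kinase, had 5.86, 5.03 and 6.73 FPKM in LiCl-treated HSF1 KO MEF, against 10.8, 11.1 and 12.1 FPKM in untreated HSF1 KO MEF. The WT libraries had 4.55, 4.90 and 5.20 FPKM with LiCl, against 12.2, 12.5 and 13.2 FPKM without. The 6 LiCl-treated libraries all lay below the 6 untreated ones, and the log2 fold change was -0.85 (standard error 0.10, adjusted p = 2.38e-05) in HSF1 KO MEF and -1.22 (standard error 0.10, adjusted p = 8.93e-07) in WT MEF. FPKM is scaled to length, so the genes can be set against each other. Of their summed level, Ulk1 held 76.1 ± 2.94% with LiCl, against 46.8 ± 1.51% without, in HSF1 KO MEF (SD, n = 3). In WT MEF it held 81.7 ± 0.211% with LiCl, against 46.8 ± 3.81% without. The sum itself was 24.6 ± 0.720 FPKM with LiCl, against 21.3 ± 0.644 FPKM without, in HSF1 KO MEF. In WT MEF the sum was 26.6 ± 1.46 FPKM with LiCl, against 23.8 ± 1.13 FPKM without. Neither kinase gene passed the test between the genotypes, with or without LiCl.

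Of the other subunits of the complex, Atg13 and Rb1cc1 fell with LiCl in both genotypes and Atg101 did not pass. Atg13, the subunit that links the kinase to its scaffold, had 8.76, 8.61 and 9.80 FPKM in LiCl-treated HSF1 KO MEF, against 11.4, 10.2 and 11.0 FPKM in untreated HSF1 KO MEF. WT MEF had 8.80, 8.02 and 9.03 FPKM with LiCl, against 13.7, 14.2 and 13.9 FPKM without. It fell less in HSF1 KO MEF (log2 fold change -0.24, standard error 0.07, adjusted p = 0.0183) than in WT MEF (log2 fold change -0.64, standard error 0.07, adjusted p = 2.14e-05), and the responses differed by 0.40 (standard error 0.11, adjusted p = 0.0153). The fall in HSF1 KO MEF lost its call without LiCl-treated HSF1 KO replicate 1, LiCl-treated HSF1 KO replicate 2 or untreated HSF1 KO replicate 1 (log2 fold change -0.22 to -0.20, adjusted p = 0.0585 to 0.0679). Atg13 was split between 2 transcripts of nearly the same length whose shares changed from library to library. ENSMUST00000028678.8 had 0.832, 0.934 and 11.9 FPKM in untreated WT MEF, where ENSMUST00000076803.11 had 12.9, 13.3 and 1.97 FPKM, so only their sum was read. Rb1cc1, the scaffold gene also known as FIP200, was at 6.69 ± 1.85 FPKM with LiCl, against 11.2 ± 1.75 FPKM without, in HSF1 KO MEF, and at 5.55 ± 2.19 FPKM, against 10.1 ± 1.16 FPKM, in WT MEF. It fell by 0.80 (standard error 0.24, adjusted p = 0.012) in WT MEF. In HSF1 KO MEF it fell by 0.69 (standard error 0.24, adjusted p = 0.0285), a call that was lost without LiCl-treated HSF1 KO replicate 2, untreated HSF1 KO replicate 2 or the unnumbered untreated HSF1 KO library (log2 fold change -0.67 to -0.47, adjusted p = 0.0685 to 0.109). Atg101, the partner of Atg13, had 15.1 to 21.2 FPKM over all 12 libraries and passed none of the 5 tests.

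Of the 6 genes of the class III PI3-kinase complex, Atg14 and Ambra1 rose with LiCl in both genotypes and the other 4 did not pass. Atg14 (ENSMUSG00000037526, chr14:47540893-47570649) encodes the subunit that directs the kinase to forming autophagosomes and has CACGTG at its start in the window printed above. It had 10.9, 10.5 and 9.70 FPKM in LiCl-treated HSF1 KO MEF, against 4.75, 4.57 and 4.53 FPKM in untreated HSF1 KO MEF. In WT MEF its level was 16.4, 15.9 and 16.0 FPKM with LiCl, against 5.72, 5.18 and 5.59 FPKM without, and the 4 groups did not overlap with each other. It rose less in HSF1 KO MEF (log2 fold change 1.02, standard error 0.07, adjusted p = 4.03e-07) than in WT MEF (log2 fold change 1.40, standard error 0.07, adjusted p = 1.77e-08), and the responses differed by -0.38 (standard error 0.10, adjusted p = 0.0118). With LiCl it was lower in HSF1 KO than in WT MEF (log2 fold change -0.59, standard error 0.07, adjusted p = 4.42e-05). Without the 4 unnumbered libraries, the difference between the Atg14 responses was -0.37 (limma, adjusted p = 0.0648). Ambra1, a regulator of Beclin 1, had 12.9, 13.4 and 11.0 FPKM in LiCl-treated HSF1 KO MEF, against 8.43, 7.68 and 8.34 FPKM in untreated HSF1 KO MEF. In WT MEF the values were 12, 11.5 and 12 FPKM with LiCl, against 9.93, 9.32 and 9.78 FPKM without. It rose by 0.55 (standard error 0.08, adjusted p = 0.000131) in HSF1 KO MEF and by 0.26 (standard error 0.08, adjusted p = 0.0121) in WT MEF, and the WT call was lost after median-of-ratios scaling (0.10, adjusted p = 0.293) and quantile normalization (0.12, adjusted p = 0.229).

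The catalytic subunit gene Pik3c3 and its partners Becn1, Pik3r4 and Uvrag did not pass with LiCl. The partners varied widely between libraries of a group, and Pik3c3 did so in untreated HSF1 KO MEF only. Pik3c3, the lipid kinase itself, had 8.73, 7.99 and 7.23 FPKM in LiCl-treated HSF1 KO MEF, against 8.44, 6.64 and 1.45 FPKM in untreated HSF1 KO MEF. Its WT values were 8.47, 8.53 and 8.76 FPKM with LiCl, against 13.0, 12.1 and 13.2 FPKM without. The unnumbered untreated HSF1 KO library lay far below the 11 others, and in WT MEF the LiCl-treated libraries lay below the untreated ones without passing (log2 fold change -0.52, standard error 0.38, adjusted p = 0.256). That standard error rests on 1 spread shared by the 4 groups, the unnumbered untreated HSF1 KO library included. The untreated HSF1 KO libraries lay below the untreated WT ones (log2 fold change -1.29, standard error 0.38, adjusted p = 0.0211). That call was lost without untreated WT replicate 1 or the unnumbered untreated WT library (log2 fold change -1.28 to -1.27, adjusted p = 0.0533 to 0.0549), and with only the compared groups fitted the adjusted p was 0.0879. Becn1, the gene of Beclin 1, had 3.10 to 9.94 FPKM in LiCl-treated HSF1 KO MEF, against 3.47 to 12.1 FPKM in untreated HSF1 KO MEF, and 6.15 to 10.6 FPKM in LiCl-treated WT MEF, against 2.80 to 12 FPKM in untreated WT MEF. Uvrag, the subunit of the endosomal form of the complex, ranged from 1.84 to 15.6 FPKM and Pik3r4, the regulatory kinase subunit, from 2.94 to 12.6 FPKM over the 12 libraries. The standard error of a log2 fold change was 0.55 for Becn1, 0.54 for Uvrag and 0.39 for Pik3r4, against 0.07 for Atg14, and none of these 3 passed any of the 5 tests.

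Among the genes of lipid supply and PI3P binding, Atg2b rose and Wipi1 and Vmp1 fell with LiCl in both genotypes. Wipi1 (ENSMUSG00000041895, chr11:109573331-109611967) encodes a protein that binds PI3P on the forming membrane. It had 18.3, 16.9 and 18.4 FPKM in LiCl-treated HSF1 KO MEF, against 49.2, 53.0 and 54.2 FPKM in untreated HSF1 KO MEF. In the WT libraries it had 31.5, 31.9 and 30.4 FPKM with LiCl, against 61.0, 63.6 and 70.0 FPKM without. The 4 groups did not overlap with each other. It fell more in HSF1 KO MEF (log2 fold change -1.49, standard error 0.07, adjusted p = 1.51e-08) than in WT MEF (log2 fold change -1.03, standard error 0.07, adjusted p = 1.47e-07), and the responses differed by -0.47 (standard error 0.09, adjusted p = 0.00294). When only its leading transcript was used, this difference was -0.39 (limma, adjusted p = 0.0642). LiCl-treated HSF1 KO MEF had the lowest level of the 4 groups. A short transcript of 8 exons, ENSMUST00000106689.1, moved the other way in WT MEF, with 4.26, 5.26 and 4.64 FPKM with LiCl, against 0.741, 1.65 and 0.712 FPKM without (log2 fold change 1.52, standard error 0.22, adjusted p = 0.000356). In HSF1 KO MEF it had 0.862, 1.96 and 1.76 FPKM with LiCl, against 1.59, 1.60 and 1.41 FPKM without, and the responses of this transcript differed (log2 difference -1.55, standard error 0.31, adjusted p = 0.00997).

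Atg2b (chr12:105616136-105685211), 1 of the 2 genes of the lipid transfer protein ATG2, had 9.65, 9.02 and 10.7 FPKM in LiCl-treated HSF1 KO MEF, against 5.26, 5.12 and 6.62 FPKM in untreated HSF1 KO MEF. In WT cells it had 16.7, 15.4 and 18.1 FPKM with LiCl, against 7.09, 7.17 and 7.46 FPKM without. It rose by 0.70 (standard error 0.10, adjusted p = 0.000142) in HSF1 KO MEF and by 1.10 (standard error 0.10, adjusted p = 2.83e-06) in WT MEF, and with LiCl it was lower in HSF1 KO MEF (log2 fold change -0.72, standard error 0.10, adjusted p = 0.000199). The difference between its responses was -0.40 (standard error 0.14, adjusted p = 0.0533). Its paralog Atg2a was at 8.67 ± 0.388 FPKM with LiCl, against 6.87 ± 0.446 FPKM without, in HSF1 KO MEF (log2 fold change 0.30, standard error 0.09, adjusted p = 0.0181). This call was lost under both scalings (0.12 and 0.16, adjusted p = 0.347 and 0.203) and without LiCl-treated HSF1 KO replicate 1, untreated HSF1 KO replicate 1 or untreated HSF1 KO replicate 2 (log2 fold change 0.27 to 0.28, adjusted p = 0.0519 to 0.0618). In WT MEF Atg2a did not pass (log2 fold change 0.10, standard error 0.09, adjusted p = 0.36). Vmp1, the gene of an endoplasmic reticulum protein that acts at contact sites with the forming membrane, had 33.9, 27.5 and 32.5 FPKM in LiCl-treated HSF1 KO MEF, against 51.0, 59.9 and 49.2 FPKM in untreated HSF1 KO MEF. The WT libraries had 26.4, 28.3 and 27.4 FPKM with LiCl, against 49.8, 48.0 and 56.5 FPKM without. It fell in both genotypes (log2 fold change -0.75 in HSF1 KO MEF and -0.88 in WT MEF, standard error 0.10 and 0.10, adjusted p = 6.93e-05 and 1.38e-05). Neither the difference of the responses (log2 difference 0.13, standard error 0.14, adjusted p = 0.528) nor either comparison of the genotypes passed. The Vmp1 window with GAANNTTC lies near the start of a short transcript, ENSMUST00000143991.2, whose group means were 0.02 to 0.74 FPKM. Nearly all of the Vmp1 level lay in ENSMUST00000018315.9 (group means of 27.1 to 52.6 FPKM), which starts upstream of that window. Wipi2 and Atg9a, the lipid scramblase gene, did not pass with LiCl.

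Of the 10 conjugation enzymes, 4 rose and 1 fell with LiCl in HSF1 KO MEF, and 5 rose and 1 fell in WT MEF. Of all genes tested, 36.5% rose in HSF1 KO MEF and 38.1% in WT MEF. Atg5 and Atg12 encode the pair of proteins that are joined to each other and then act with ATG16L1 as the ligase for ATG8 proteins. Atg12 had 30.7, 30.5 and 29.9 FPKM in LiCl-treated HSF1 KO MEF, against 25.2, 24.5 and 23.9 FPKM in untreated HSF1 KO MEF. WT MEF had 34.0, 31.9 and 36.3 FPKM with LiCl, against 23.3, 21.1 and 23.7 FPKM without. The 4 groups were apart from each other. Atg12 rose by 0.29 (standard error 0.06, adjusted p = 0.00223) in HSF1 KO MEF and by 0.56 (standard error 0.06, adjusted p = 1.52e-05) in WT MEF. The HSF1 KO call was lost after median-of-ratios scaling (0.10, adjusted p = 0.212). Atg5 had 20.3, 20.9 and 24.6 FPKM in LiCl-treated HSF1 KO MEF, against 14.8, 14.7 and 13.5 FPKM in untreated HSF1 KO MEF. In WT MEF the values were 21.0, 21.4 and 24.5 FPKM with LiCl, against 12.2, 14.4 and 14.8 FPKM without. It rose by 0.58 (standard error 0.10, adjusted p = 0.000432) in HSF1 KO MEF and by 0.66 (standard error 0.10, adjusted p = 0.000125) in WT MEF. The responses did not differ past the threshold (log2 difference -0.08, standard error 0.14, adjusted p = 0.698). Atg3, the E2-like enzyme that transfers ATG8 proteins to lipid and the only member with TCACGTGA, had 31.3, 28.2 and 24.8 FPKM in LiCl-treated HSF1 KO MEF, against 26.8, 25.2 and 20.3 FPKM in untreated HSF1 KO MEF. Its WT values were 37.3, 39.6 and 42.3 FPKM with LiCl, against 23.7, 25.7 and 24.7 FPKM without. Its libraries with and without LiCl overlapped in HSF1 KO MEF (log2 fold change 0.22, standard error 0.11, adjusted p = 0.111) and were apart in WT MEF (log2 fold change 0.66, standard error 0.11, adjusted p = 0.000284). The responses differed by -0.44 (standard error 0.15, adjusted p = 0.0498), at the edge of the threshold, and this call was lost without each single library other than LiCl-treated HSF1 KO replicate 1 and the unnumbered untreated HSF1 KO library (10 of 12 libraries, log2 difference -0.49 to -0.36, adjusted p = 0.0549 to 0.108).

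Among the other conjugation enzymes, Atg4d, 1 of the 4 genes of the protease that cuts ATG8 proteins, rose in both genotypes (log2 fold change 0.47 in HSF1 KO MEF and 0.58 in WT MEF, standard error 0.11 and 0.11, adjusted p = 0.0035 and 0.000739). Atg4a passed in HSF1 KO MEF (log2 fold change 0.30, standard error 0.11, adjusted p = 0.0314) and not in WT MEF (log2 fold change 0.15, standard error 0.11, adjusted p = 0.235), and the difference of the responses did not pass (log2 difference 0.15, standard error 0.15, adjusted p = 0.499). The Atg4a call was lost under both scalings (0.11 and 0.13, adjusted p = 0.39 and 0.319) and without LiCl-treated HSF1 KO replicate 1, the unnumbered LiCl-treated HSF1 KO library, untreated HSF1 KO replicate 1 or untreated HSF1 KO replicate 2 (log2 fold change 0.23 to 0.31, adjusted p = 0.0591 to 0.117). Atg4b and Atg4c did not pass with LiCl. Atg7, the E1-like enzyme of both conjugation systems, was at 4.26 ± 1.24 FPKM with LiCl, against 6.84 ± 0.443 FPKM without, in HSF1 KO MEF (log2 fold change -0.60, standard error 0.19, adjusted p = 0.0167), a call that was lost without LiCl-treated HSF1 KO replicate 1 or untreated HSF1 KO replicate 2 (log2 fold change -0.56 to -0.40, adjusted p = 0.0526 to 0.0607). Atg10, the E2-like enzyme for ATG12, was at 1.54 ± 0.798 FPKM with LiCl, against 4.07 ± 0.347 FPKM without, in WT MEF (log2 fold change -1.04, standard error 0.21, adjusted p = 0.00107). Atg16l1, the third part of the ligase, is given in full because of its spread, chosen after its values were seen. It had 5.96, 15.2 and 12.3 FPKM in LiCl-treated HSF1 KO MEF, against 3.54, 7.93 and 6.97 FPKM in untreated HSF1 KO MEF. In the WT libraries it had 14.7, 16.3 and 12.6 FPKM with LiCl, against 1.96, 9.87 and 1.67 FPKM without. Replicate 2 of untreated WT MEF stood at 9.87 FPKM and the other 2 below 2 FPKM. The rise of 1.81 (standard error 0.51, adjusted p = 0.00897) in WT MEF was lost without the 4 unnumbered libraries (1.54, adjusted p = 0.104).

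In the ATG8 family, LiCl lowered Map1lc3a and Gabarapl1 in both genotypes while Gabarapl2 rose in both. Map1lc3a, which encodes the ATG8 protein LC3A, had 22.7, 26.9 and 20.3 FPKM in LiCl-treated HSF1 KO MEF, against 47.0, 47.7 and 49.4 FPKM in untreated HSF1 KO MEF. In WT cells it had 21.1, 17.9 and 27.0 FPKM with LiCl, against 66.5, 71.5 and 60.3 FPKM without. Its 6 LiCl-treated libraries lay at 17.9 to 27.0 FPKM in both genotypes, and the log2 fold changes were -1.02 (standard error 0.14, adjusted p = 9.23e-05) in HSF1 KO MEF and -1.56 (standard error 0.14, adjusted p = 2.27e-06) in WT MEF. Gabarapl1 (ENSMUSG00000030161, chr6:129533160-129542346), the gene of a GABARAP-like ATG8 protein, had 31.6, 32.1 and 37.9 FPKM in LiCl-treated HSF1 KO MEF, against 50.3, 55.3 and 43.3 FPKM in untreated HSF1 KO MEF. The WT libraries had 40.5, 39.0 and 42.8 FPKM with LiCl, against 75.8, 76.6 and 82.8 FPKM without. Untreated WT MEF stood above the 3 other groups, and the log2 fold changes were -0.54 (standard error 0.10, adjusted p = 0.000634) in HSF1 KO MEF and -0.93 (standard error 0.10, adjusted p = 7.32e-06) in WT MEF. The difference between them (log2 difference 0.39, standard error 0.13, adjusted p = 0.0484) was lost without each single library other than LiCl-treated HSF1 KO replicate 1 and untreated HSF1 KO replicate 2 (10 of 12 libraries, log2 difference 0.30 to 0.43, adjusted p = 0.053 to 0.103).

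Gabarap, the ATG8 gene with the highest level here, had 221, 249.6 and 204 FPKM in LiCl-treated HSF1 KO MEF, against 196, 203 and 175 FPKM in untreated HSF1 KO MEF. WT MEF had 278, 269 and 233 FPKM with LiCl, against 174, 173 and 162 FPKM without. The log2 fold change was 0.23 (standard error 0.09, adjusted p = 0.0513) in HSF1 KO MEF, which did not pass, and 0.61 (standard error 0.09, adjusted p = 0.00014) in WT MEF. The call that the responses differed (log2 difference -0.38, standard error 0.13, adjusted p = 0.0459) was lost without each single library other than LiCl-treated HSF1 KO replicate 2, the unnumbered untreated HSF1 KO library and the unnumbered LiCl-treated WT library (9 of 12 libraries, log2 difference -0.40 to -0.32, adjusted p = 0.0681 to 0.103). Gabarapl2 rose by 0.39 (standard error 0.06, adjusted p = 0.000287) in HSF1 KO MEF and by 0.28 (standard error 0.06, adjusted p = 0.0021) in WT MEF, and the WT call was lost under both scalings (0.11 and 0.15, adjusted p = 0.188 and 0.0567). Map1lc3b, the gene of LC3B, rose in WT MEF (log2 fold change 0.30, standard error 0.08, adjusted p = 0.00823), which was also lost under both scalings (0.12 and 0.18, adjusted p = 0.184 and 0.0819), and did not pass in HSF1 KO MEF (log2 fold change 0.10, standard error 0.08, adjusted p = 0.335). The make-up of the family differed between the groups more than its total. Gabarap held 58.5, 61.1 and 56.8% of the summed ATG8 level in LiCl-treated HSF1 KO MEF, against 52.2, 51.6 and 49.8% in untreated HSF1 KO MEF. In WT MEF its share was 60.4, 61.4 and 54.5% with LiCl, against 42.2, 41.6 and 39.6% without. Map1lc3a held 6.08 ± 0.487% with LiCl, against 12.9 ± 1.03% without, in HSF1 KO MEF, and 4.99 ± 1.17%, against 16.1 ± 1.25%, in WT MEF (SD, n = 3). Gabarapl1 held 8.92 ± 1.41%, against 13.2 ± 0.861%, in HSF1 KO MEF and 9.22 ± 0.670%, against 19.1 ± 1.03%, in WT MEF. The sum of the 5 genes was 382 ± 24.4 FPKM with LiCl, against 374 ± 21.4 FPKM without, in HSF1 KO MEF. In WT MEF it was 443 ± 16.6 FPKM with LiCl, against 411 ± 2.98 FPKM without. These shares are a description and were not tested.

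**Figure D2:**
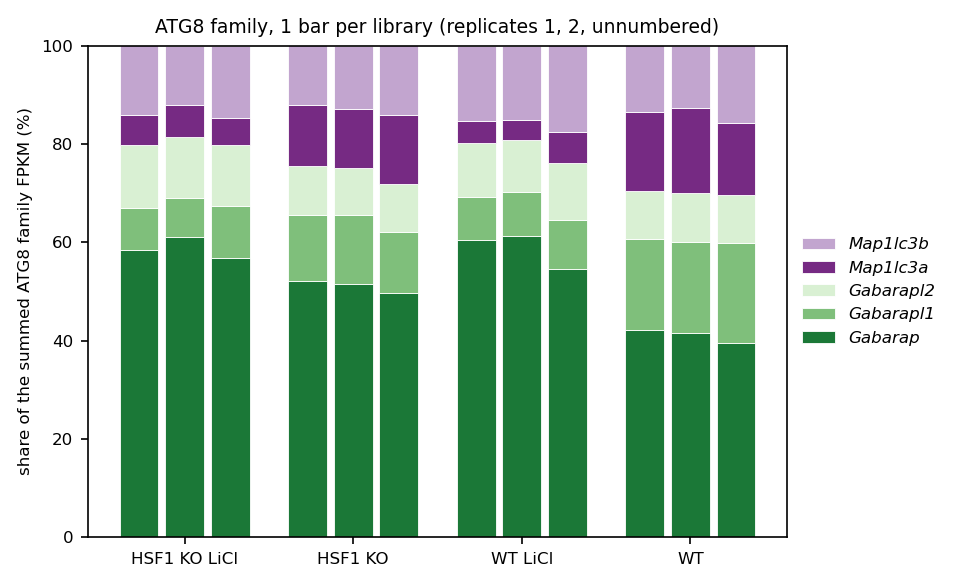
Share of each gene (%) in the summed FPKM of the 5 ATG8 family genes (y axis), 1 bar for each of the 12 libraries in 4 groups. Gabarap takes 54.5% to 61.4% in LiCl-treated WT MEF, against 39.6% to 42.2% in untreated WT MEF, and the share of Map1lc3a is smaller in the LiCl-treated libraries of both genotypes.

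Among the 11 members called in the test of the difference between the LiCl responses, the largest differences were those of the cargo receptor genes Sqstm1 and Calcoco1. Sqstm1 (ENSMUSG00000015837, chr11:50199366-50210827), the gene of the receptor p62 and the member with the highest mean FPKM over the 12 libraries, had 320.3, 345 and 304 FPKM in LiCl-treated HSF1 KO MEF, against 187, 177 and 179 FPKM in untreated HSF1 KO MEF. In WT MEF it had 588, 572 and 535 FPKM with LiCl, against 184, 168 and 162 FPKM without. Untreated cells of both genotypes thus lay close together (log2 fold change 0.08, standard error 0.07, adjusted p = 0.397), LiCl-treated HSF1 KO libraries lay above them, and LiCl-treated WT libraries lay above all others. It rose by 0.83 (standard error 0.07, adjusted p = 1.67e-06) in HSF1 KO MEF and by 1.72 (standard error 0.07, adjusted p = 3.12e-09) in WT MEF. The responses differed by -0.88 (standard error 0.09, adjusted p = 4.55e-05), which passed under all 20 alternatives that apply to it, where it ranged from -0.96 to -0.84. The window of its promoter printed above held none of the 4 motifs.

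Calcoco1 (ENSMUSG00000023055, chr15:102706777-102722178), which encodes a relative of the receptor NDP52 and acts in the autophagy of the endoplasmic reticulum, had the opposite kind of difference. It had 20.6, 22.9 and 21.2 FPKM in LiCl-treated HSF1 KO MEF, against 22.8, 20.9 and 22.9 FPKM in untreated HSF1 KO MEF. The WT libraries had 17.9, 16.4 and 17.0 FPKM with LiCl, against 35.7, 36.0 and 33.4 FPKM without. The HSF1 KO libraries with and without LiCl overlapped (log2 fold change -0.04, standard error 0.06, adjusted p = 0.609), while in WT MEF it fell (log2 fold change -1.0, standard error 0.06, adjusted p = 1.61e-07). The responses differed by 0.95 (standard error 0.09, adjusted p = 1.92e-05). Hence it was lower in HSF1 KO than in WT MEF without LiCl (log2 fold change -0.64, standard error 0.06, adjusted p = 1.57e-05) and higher with LiCl (log2 fold change 0.32, standard error 0.06, adjusted p = 0.00216), the 1 member called in opposite directions in these comparisons. When only its leading transcript was used, the difference between the responses was 0.58 (adjusted p = 0.0625) and the value with LiCl was 0.06 (adjusted p = 0.798). Its window held none of the 4 motifs either.

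Nbr1, the gene of a receptor that works with p62, had 19.2, 22.1 and 23.1 FPKM in LiCl-treated HSF1 KO MEF, against 26.0, 22.8 and 26.0 FPKM in untreated HSF1 KO MEF. In WT MEF the values were 31.1, 31.1 and 36.1 FPKM with LiCl, against 32.8, 29.7 and 31.8 FPKM without. It did not pass with LiCl in either genotype (log2 fold change -0.21 in HSF1 KO MEF and 0.06 in WT MEF, standard error 0.09 and 0.09, adjusted p = 0.071 and 0.588) and was lower in HSF1 KO MEF with LiCl (log2 fold change -0.59, standard error 0.09, adjusted p = 0.000331). With only its leading transcript, the value with LiCl was -0.18 (adjusted p = 0.618). Without LiCl the genotype difference was -0.32 (standard error 0.09, adjusted p = 0.0147), a call lost without untreated HSF1 KO replicate 2 or untreated WT replicate 1 (log2 fold change -0.29 to -0.26, adjusted p = 0.0544 to 0.0611). Tax1bp1 rose in WT MEF (log2 fold change 0.35, standard error 0.08, adjusted p = 0.00242) and stayed within the spread in HSF1 KO MEF (log2 fold change 0.01, standard error 0.08, adjusted p = 0.911), and the difference of -0.33 (standard error 0.11, adjusted p = 0.0407) was lost without each single library other than the unnumbered LiCl-treated HSF1 KO library, untreated HSF1 KO replicate 1, LiCl-treated WT replicate 1 and the unnumbered untreated WT library (8 of 12 libraries, log2 difference -0.35 to -0.28, adjusted p = 0.0611 to 0.092). Optn, a receptor gene with GAANNTTC in its window, did not pass with LiCl and was lower in HSF1 KO MEF with LiCl (log2 fold change -0.60, standard error 0.10, adjusted p = 0.000829) and without LiCl (log2 fold change -0.41, standard error 0.10, adjusted p = 0.00895). When only the leading transcript of Optn was used, the genotype difference with LiCl was -0.55 (limma, adjusted p = 0.0795). Over the 5 receptor genes, Sqstm1 held 73.5 ± 1.80% of the summed level with LiCl, against 60.0 ± 1.21% without, in HSF1 KO MEF and 78.8 ± 1.46%, against 53.6 ± 2.20%, in WT MEF (SD, n = 3).

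**Figure D3:**
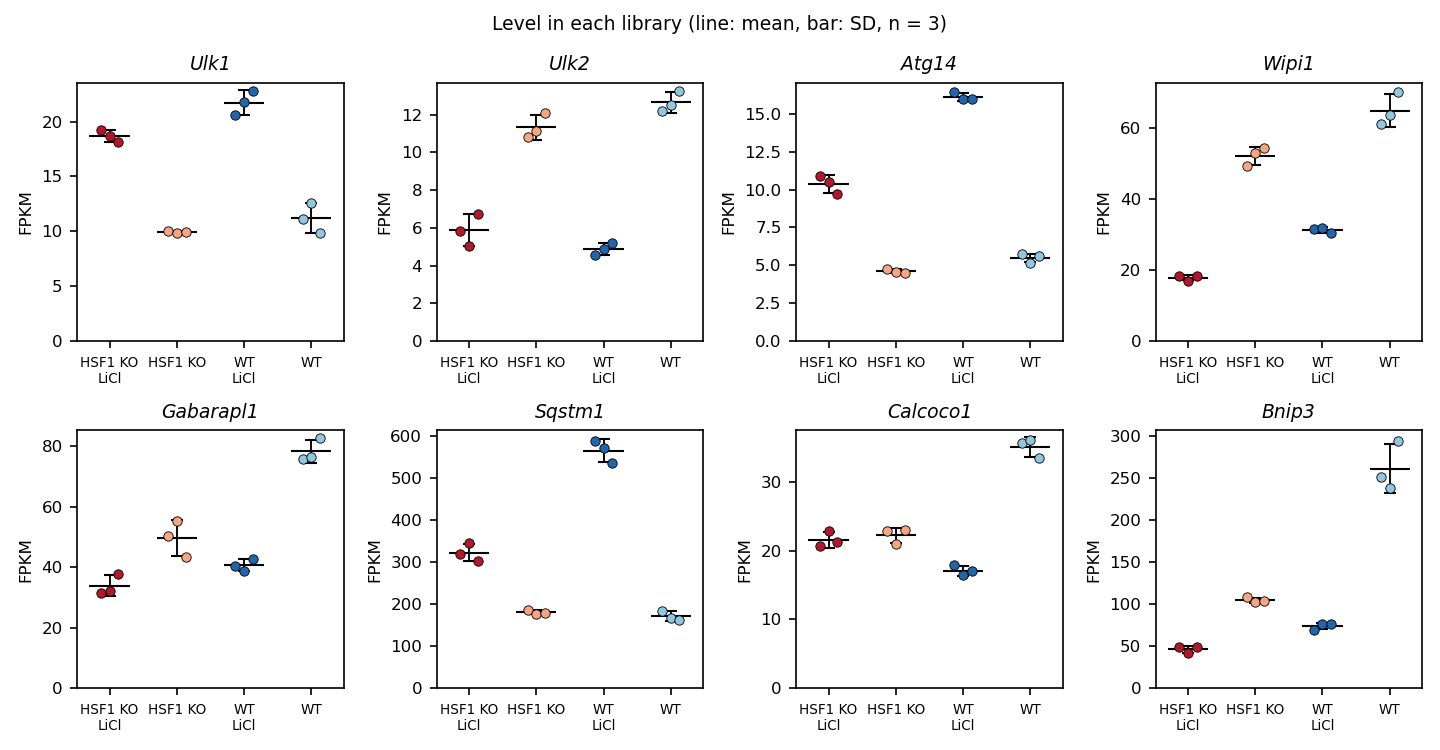
Level in FPKM (y axis) of 8 members in each library of the 4 groups, with 1 point per library, a line for the mean and a bar for the SD (n = 3). Ulk1, Atg14 and Sqstm1 are higher and Ulk2, Wipi1, Gabarapl1 and Bnip3 lower in the LiCl-treated libraries of both genotypes, and Calcoco1 is lower with LiCl in the WT libraries and overlaps in the HSF1 KO libraries.

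Most of the rise of Sqstm1 lay in 1 of its transcripts, while another fell. ENSMUST00000102774.10, of 8 exons and 2037 bases, had 299.6, 320.0 and 278 FPKM in LiCl-treated HSF1 KO MEF, against 137, 122 and 133 FPKM in untreated HSF1 KO MEF. In WT MEF it had 548, 525 and 507 FPKM with LiCl, against 143, 122 and 121 FPKM without. Its log2 fold change was 1.19 (standard error 0.08, adjusted p = 2.39e-06) in HSF1 KO MEF and 2.03 (standard error 0.08, adjusted p = 3.06e-08) in WT MEF (limma over 23003 transcripts). In contrast, ENSMUST00000015981.11, which has the same number of exons and reaches further at its 3′ end (2673 bases in all), had 15.8, 18.8 and 20.4 FPKM with LiCl, against 46.2, 52.2 and 43.8 FPKM without, in HSF1 KO MEF. In WT MEF it had 30.2, 34.4 and 22.6 FPKM, against 38.3, 43.0 and 40.1 FPKM. It fell by 1.33 (standard error 0.15, adjusted p = 8.66e-05) in HSF1 KO MEF and fell by 0.48 (standard error 0.15, adjusted p = 0.028) in WT MEF. Another, short transcript of 3 exons, ENSMUST00000136936.1, also rose in WT MEF, with 10.2, 12.8 and 5.26 FPKM with LiCl, against 3.15, 2.78 and 1.55 FPKM without (log2 fold change 1.53, standard error 0.29, adjusted p = 0.00205). In HSF1 KO MEF it had 4.92, 5.75 and 4.86 FPKM with LiCl, against 3.21, 2.76 and 2.05 FPKM without, which did not pass (log2 fold change 0.76, standard error 0.29, adjusted p = 0.0799). The HSF1 KO response lay below the WT response by a log2 difference of -0.84 (standard error 0.11, adjusted p = 0.000863) for ENSMUST00000102774.10 and -0.85 (standard error 0.21, adjusted p = 0.0285) for ENSMUST00000015981.11. These 2 transcripts share most of their sequence, and how the reads they share were divided is an estimate of the authors' software.

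**Figure D4:**
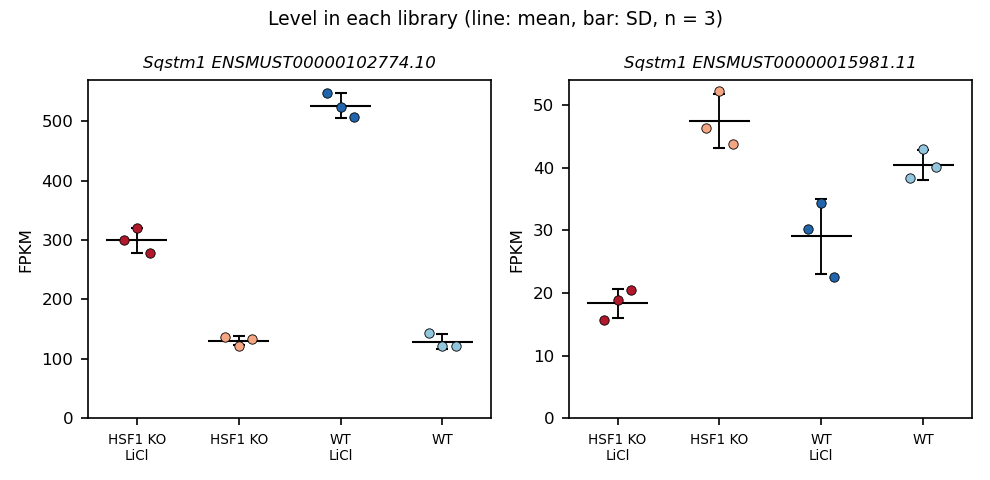
Level in FPKM (y axis) of 2 transcripts of Sqstm1 in each library of the 4 groups, with 1 point per library, a line for the mean and a bar for the SD (n = 3). ENSMUST00000102774.10 is higher and ENSMUST00000015981.11 lower in the LiCl-treated libraries of both genotypes, on y axes of different range.

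Of the mitophagy receptors, which sit in the outer mitochondrial membrane and bind ATG8 proteins, Bnip3 had the largest changes and Fundc1 none that passed. Bnip3 (ENSMUSG00000078566, chr7:138890836-138909519), a gene also known to be induced by hypoxia, had 48.6, 41.6 and 48.5 FPKM in LiCl-treated HSF1 KO MEF, against 108, 102 and 103 FPKM in untreated HSF1 KO MEF. Its WT values were 69.2, 76.4 and 76.2 FPKM with LiCl, against 251, 237 and 294 FPKM without. The 4 groups did not overlap with each other. Bnip3 was lower in HSF1 KO than in WT MEF both with LiCl (log2 fold change -0.67, standard error 0.09, adjusted p = 0.000115) and without LiCl (log2 fold change -1.31, standard error 0.09, adjusted p = 5.82e-07). With LiCl it fell by 1.16 (standard error 0.09, adjusted p = 9.73e-07) in HSF1 KO MEF and fell by 1.80 (standard error 0.09, adjusted p = 1.69e-08) in WT MEF. The responses differed by 0.64 (standard error 0.12, adjusted p = 0.00262), which passed under all 20 alternatives. Bnip3l, the gene of the related receptor NIX, had 32.1, 35.8 and 33.9 FPKM in LiCl-treated HSF1 KO MEF, against 32.0, 44.6 and 46.6 FPKM in untreated HSF1 KO MEF. In the WT libraries it had 53.2, 54.8 and 63.0 FPKM with LiCl, against 63.8, 64.0 and 83.8 FPKM without. It did not pass with LiCl (log2 fold change -0.25 in HSF1 KO MEF and -0.30 in WT MEF, standard error 0.15 and 0.15, adjusted p = 0.163 and 0.0999) but was lower in HSF1 KO MEF with LiCl (log2 fold change -0.73, standard error 0.15, adjusted p = 0.00213) and without LiCl (log2 fold change -0.77, standard error 0.15, adjusted p = 0.00167). In LiCl-treated HSF1 KO MEF its signal was divided unevenly between 2 transcripts, with 22.5, 0.348 and 25.4 FPKM for ENSMUST00000111115.7, against 0.263 to 0.314 FPKM in untreated HSF1 KO MEF. Fundc1 had 15.2, 14.7 and 15.3 FPKM in LiCl-treated HSF1 KO MEF, against 14.3, 16.0 and 17.9 FPKM in untreated HSF1 KO MEF. In WT cells it had 16.0, 17.1 and 17.8 FPKM with LiCl, against 14.7, 18.1 and 19.5 FPKM without. Its libraries lay between 14.3 and 19.5 FPKM in all 4 groups.

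Between the genotypes, the autophagy genes that differed were nearly all lower in HSF1 KO MEF. Without LiCl, 0 of 40 members were higher and 19 were lower in HSF1 KO than in WT MEF (limma, adjusted p under 0.05), against 17.8% of all genes tested that were higher and 20.4% that were lower. At an unadjusted p under 0.05, the counts were 0 higher and 20 lower, and no share of all genes is given for them. With LiCl, 1 member was higher (Calcoco1) and 12 were lower, against 19.6% and 23% of all genes tested. The median log2 fold change of the members was -0.19 without LiCl and -0.19 with LiCl, and that of all genes tested was -0.03 in both. Atg14, Atg2b, Wipi1, Map1lc3b, Gabarapl1, Nbr1, Optn, Bnip3 and Bnip3l were lower in HSF1 KO MEF in both comparisons. By role, 5 of 6 genes of lipid supply and PI3P binding and 3 of 6 of the class III PI3-kinase complex were lower without LiCl. So were 3 of 5 ubiquitin-binding receptors, 2 of 3 mitophagy receptors, 3 of 5 ATG8 genes, 1 of 5 ULK complex genes and 2 of 10 conjugation enzymes. Of the 19 calls behind these counts, 11 were lost with a library left out, as given below, and a difference between roles was not tested. With both scalings 14 members were lower without LiCl and 0 higher, while the shares of all genes above were counted without scaling. The macrophage markers given above were higher in the same untreated HSF1 KO libraries, and their part in these differences was not tested. With LiCl, 6 of the 12 macrophage markers were higher and 2 were lower. Of the 10 fibroblast markers, 5 were higher and 4 lower with LiCl, and 1 was higher and 5 were lower without LiCl, and their sums stand above for each group. Of the 3 epithelial markers tested, 2 were higher with LiCl and 2 lower without LiCl, and both adipocyte markers were lower in both comparisons. The part of these markers was not tested either.

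The differences without LiCl ran from -1.31 (Bnip3) to -0.21 (Atg14) on the log2 scale, and the number called depended on single libraries. The count of lower members was 10 without untreated HSF1 KO replicate 1, 10 without untreated HSF1 KO replicate 2 and 10 without untreated WT replicate 1. The share of all genes called in each of these fits is not given here, so these counts describe the members alone. Of the 19 calls, 8 passed with each of the 12 libraries left out in turn, namely Atg13, Wipi1, Wipi2, Gabarapl1, Optn, Calcoco1, Bnip3 and Bnip3l. Of the 19, 4 passed under every alternative (Wipi1, Gabarapl1, Calcoco1 and Bnip3). Without the 4 unnumbered libraries, Optn (-0.28, adjusted p = 0.125) and Wipi2 (-0.19, adjusted p = 0.0502) lost their calls. With only the leading transcript, Bnip3l (-0.78, adjusted p = 0.221) and Optn (-0.38, adjusted p = 0.243) lost theirs, and Atg13 turned its direction (0.47, adjusted p = 0.575). Wipi2, the gene of the WIPI protein that recruits the ATG8 ligase, was at 22.3 ± 0.401 FPKM in untreated HSF1 KO MEF, against 26.3 ± 1.11 FPKM in untreated WT MEF (SD, n = 3). This was lower by a small margin that passed (log2 fold change -0.23, standard error 0.05, adjusted p = 0.0066). The other 11 calls were lost in at least 1 of these fits. Pik3c3 and Nbr1 are described above.

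Among the genes of lipid supply, Atg9a at -0.54 was lost without untreated HSF1 KO replicate 1, untreated HSF1 KO replicate 2, the unnumbered untreated HSF1 KO library, LiCl-treated WT replicate 2, untreated WT replicate 1 or untreated WT replicate 2 (log2 fold change -0.58 to -0.44, adjusted p = 0.0585 to 0.149). The ATG2 genes were lower by similar amounts. Atg2a at -0.29 was lost without untreated HSF1 KO replicate 1, untreated HSF1 KO replicate 2, untreated WT replicate 1 or untreated WT replicate 2 (log2 fold change -0.27 to -0.23, adjusted p = 0.088 to 0.122), and Atg2b at -0.31 was lost without untreated HSF1 KO replicate 1, untreated HSF1 KO replicate 2, untreated WT replicate 1, untreated WT replicate 2 or the unnumbered untreated WT library (log2 fold change -0.32 to -0.25, adjusted p = 0.0637 to 0.113). Regulators of the PI3-kinase were among the smallest differences. Atg14 at -0.21 was lost without untreated HSF1 KO replicate 1, untreated HSF1 KO replicate 2, the unnumbered untreated HSF1 KO library, untreated WT replicate 1 or the unnumbered untreated WT library (log2 fold change -0.23 to -0.19, adjusted p = 0.0523 to 0.105). Ambra1 at -0.22 was lost without each single library other than LiCl-treated HSF1 KO replicate 2 and the unnumbered LiCl-treated HSF1 KO library (10 of 12 libraries, log2 fold change -0.25 to -0.19, adjusted p = 0.0568 to 0.141). The LC3 genes were both lower and neither call was stable. Map1lc3a at -0.45 was lost without untreated HSF1 KO replicate 1, untreated HSF1 KO replicate 2, untreated WT replicate 1 or untreated WT replicate 2 (log2 fold change -0.45 to -0.39, adjusted p = 0.0645 to 0.0876). Map1lc3b at -0.24 was lost without each single library other than LiCl-treated HSF1 KO replicate 2, LiCl-treated WT replicate 2, the unnumbered LiCl-treated WT library and untreated WT replicate 2 (8 of 12 libraries, log2 fold change -0.27 to -0.16, adjusted p = 0.0524 to 0.141). Of the 4 protease genes, Atg4a and Atg4c were called and Atg4b and Atg4d were not. Atg4a at -0.36 was lost without untreated HSF1 KO replicate 1 or the unnumbered untreated WT library (log2 fold change -0.30 to -0.29, adjusted p = 0.0726 to 0.0782). Atg4c at -0.29 was lost without untreated HSF1 KO replicate 1, untreated HSF1 KO replicate 2, untreated WT replicate 2 or the unnumbered untreated WT library (log2 fold change -0.32 to -0.20, adjusted p = 0.0524 to 0.129).

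In the other direction, Atg16l1 was higher in untreated HSF1 KO MEF when untreated WT replicate 2 was left out, at 1.29 (adjusted p = 0.022), which makes 1 higher member in place of 0. With LiCl, 12 of the 13 calls passed with each library left out. Gabarapl1 (log2 fold change -0.26, standard error 0.10, adjusted p = 0.0465) was lost without each single library other than the unnumbered LiCl-treated HSF1 KO library, untreated HSF1 KO replicate 2 and the unnumbered untreated HSF1 KO library (9 of 12 libraries, log2 fold change -0.29 to -0.22, adjusted p = 0.0522 to 0.147). The count of higher members with LiCl was 3 without LiCl-treated HSF1 KO replicate 2, 2 without LiCl-treated HSF1 KO replicate 1 and 2 without the unnumbered LiCl-treated WT library. Shares of all genes in these fits are not given here either.

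**Figure D5:**
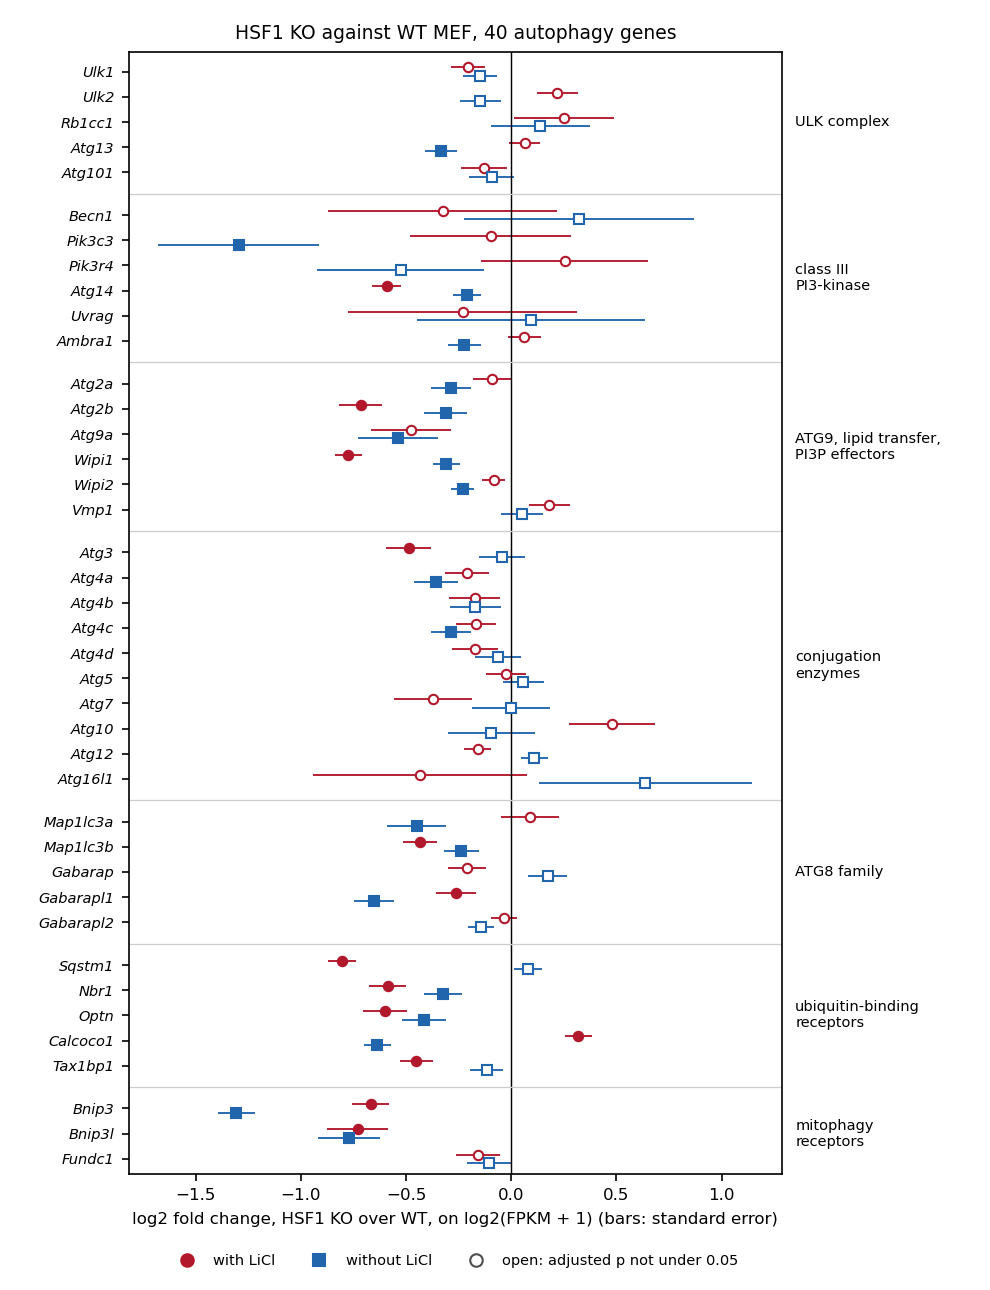
Log2 fold change of HSF1 KO over WT MEF (x axis, on the log2(FPKM + 1) scale) of the 40 members, 1 row per gene and grouped by role, with LiCl (circles) and without LiCl (squares), with standard errors as bars and open symbols where the adjusted p from limma was not under 0.05. All 19 filled squares and 12 of the 13 filled circles lie below 0, and the circle of Calcoco1 lies at 0.32.

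The response to LiCl differed between the genotypes for 11 of 40 members by the test of the difference itself. The HSF1 KO response lay above the WT response for 4 members (Atg13, Gabarapl1, Calcoco1 and Bnip3) and below it for 7 (Atg14, Wipi1, Atg3, Atg12, Gabarap, Sqstm1 and Tax1bp1), against 16.1% and 15.3% of all genes tested. Atg13, Gabarapl1 and Bnip3 fell less in HSF1 KO MEF, and Calcoco1 fell in WT MEF and did not pass in HSF1 KO MEF. Atg14, Atg12 and Sqstm1 rose less in HSF1 KO MEF. Atg3, Gabarap and Tax1bp1 rose in WT MEF and did not pass in HSF1 KO MEF, whereas Wipi1 fell more in HSF1 KO MEF. Atg12 (log2 difference -0.27, standard error 0.09, adjusted p = 0.0431) lost its call without each single library other than LiCl-treated WT replicate 2 and the unnumbered untreated WT library (10 of 12 libraries, log2 difference -0.29 to -0.22, adjusted p = 0.0517 to 0.095). With 1 library left out at a time, 6 of the 11 passed each time, namely Atg13, Atg14, Wipi1, Sqstm1, Calcoco1 and Bnip3. The count of members below was 3 to 5 in all of these fits, with the lowest of 3 without untreated WT replicate 1. The shares of all genes above belong to the fit with no library left out. The fibroblast markers were called in the same test too (6 of 10 above 0 and 0 below), as were all 12 macrophage markers (below 0), and their part in the differences of the members was not tested.

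By their mean FPKM over the 12 libraries, the members ran from 310.1 (Sqstm1), 212 (Gabarap), 121 (Bnip3) and 73.8 (Tax1bp1) to 5.93 (Atg7), 2.96 (Atg10) and 1.80 (Atg4d). The members were represented by 85 transcripts, 1 each for 13 members and up to 6 for the others.

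The genes whose level over the 12 libraries was most like that of Sqstm1 were Mknk2 (Pearson r = 0.996), Micall1 (0.995), Rasgef1a (0.995), Zfand2a (0.995) and Fgfbp3 (0.994). Those most like Calcoco1 were Plat (0.991), Mthfd1l (0.985), Gpc1 (0.981), Rnf145 (0.977) and Notch2 (0.976). These values describe 12 libraries in 4 groups that share their treatment and genotype.

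Other genes of the pathway, outside the 40, moved in both directions at formation of the autophagosome, and at its fusion nearly all rose in WT MEF. Unlike those of the members, the calls of these genes were not checked under the alternatives or with libraries left out. Of 12 other genes of autophagosome formation, 5 rose and 2 fell with LiCl in HSF1 KO MEF (median log2 fold change 0.20) and 6 rose and 3 fell in WT MEF (0.27). Of all genes tested, 36.5% rose and 21.1% fell in HSF1 KO MEF, and 38.1% rose and 27.1% fell in WT MEF. Between the genotypes, 1 was higher and 4 were lower in the HSF1 KO libraries, with LiCl and without, where 19.6% and 17.8% of all genes tested were higher and 23% and 20.4% lower. Among them, Wdr45 and Wdr45b, which encode further WIPI proteins, moved apart. Wdr45 fell by 1.22 (standard error 0.14, adjusted p = 2.77e-05) in HSF1 KO MEF and fell by 1.83 (standard error 0.14, adjusted p = 6.92e-07) in WT MEF. Wdr45b rose by 0.76 (standard error 0.09, adjusted p = 3.68e-05) in HSF1 KO MEF and 0.98 (standard error 0.09, adjusted p = 3.02e-06) in WT MEF. Nrbf2, a subunit of the PI3-kinase complex, rose by 0.61 (standard error 0.09, adjusted p = 0.000151) in HSF1 KO MEF and 0.70 (standard error 0.09, adjusted p = 3.87e-05) in WT MEF. Of 12 genes that tether and fuse autophagosomes with lysosomes, 4 rose and 0 fell in HSF1 KO MEF (5 higher and 1 lower at an unadjusted p under 0.05), whereas 10 rose and 1 fell in WT MEF, to be read against the same shares of all genes. Their median log2 fold change was 0.15 in HSF1 KO MEF and 0.41 in WT MEF, and that of all genes tested was 0.16 and 0.13. In the comparison of the genotypes 0 were higher and 6 were lower with LiCl in the HSF1 KO libraries, and 1 was higher and 2 were lower without, beside the shares of all genes just given. The HSF1 KO response was below the WT response for 6 of these 12 and above it for 0 (limma, with the same counts at an unadjusted p under 0.05), with a median difference of -0.33, against 0.01 for all genes tested, of which 15.3% lay below and 16.1% above 0 by this test. No shares of all genes are given for the unadjusted counts of these 12.

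Vps33a, a subunit of the tethering complexes HOPS and CORVET, had 25.3, 26.8 and 28.6 FPKM with LiCl, against 11.0, 9.61 and 10.7 FPKM without, in HSF1 KO MEF. In WT MEF it had 41.0, 40.5 and 44.9 FPKM with LiCl, against 9.76, 9.88 and 9.56 FPKM without. The log2 difference between the responses was -0.72 (standard error 0.10, adjusted p = 0.000307) for Vps33a. It was -0.37 (standard error 0.10, adjusted p = 0.014) for the HOPS subunit gene Vps41 and -0.59 (standard error 0.06, adjusted p = 5.5e-05) for the SNARE gene Ykt6. A further 12 genes of selective autophagy were tested. In HSF1 KO MEF 2 rose and 2 fell (median log2 fold change 0.03), and in WT MEF 4 rose and 4 fell (-0.04), against 36.5% of all genes tested that rose and 21.1% that fell in HSF1 KO MEF and 38.1% and 27.1% in WT MEF. Between the genotypes 2 of them were higher and 3 were lower in the HSF1 KO libraries, with LiCl (19.6% and 23% of all genes tested) and without (17.8% and 20.4%). Pink1, the kinase gene that marks damaged mitochondria, had 9.43, 9.95 and 10.7 FPKM with LiCl, against 14.5, 12.2 and 13.1 FPKM without, in HSF1 KO MEF, and 19.6, 17.9 and 19.3 FPKM, against 38.1, 40.2 and 36.8 FPKM, in WT MEF. Like Bnip3, Pink1 was lower in untreated HSF1 KO MEF than in untreated WT MEF (log2 fold change -1.47, standard error 0.08, adjusted p = 7.15e-08) and fell less with LiCl there (log2 difference 0.61, standard error 0.11, adjusted p = 0.00132). Tollip, an adaptor for ubiquitinated cargo, rose by 0.37 (standard error 0.07, adjusted p = 0.00121) in HSF1 KO MEF and 0.98 (standard error 0.07, adjusted p = 5.27e-07) in WT MEF. Retreg1, a receptor of the endoplasmic reticulum, rose by 1.17 (standard error 0.13, adjusted p = 1.8e-05) in HSF1 KO MEF and 1.42 (standard error 0.13, adjusted p = 2.54e-06) in WT MEF.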

How the data were processed

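Reads were trimmed with cutadapt, aligned with HISAT2 2.0.5 to GRCm38 and assembled with StringTie, per the submitters' processing notes. The authors deposited 1 table of transcript values, read here as FPKM although no source names the unit, and every transcript in it has at least 1 group mean of 0.5 FPKM, so lower transcripts had been left out. The depth in reads is not held by these values.

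From these values, 27115 of 27185 transcripts were matched by ID to GENCODE genes and summed to 12988 genes, and the 70 others held at most 0.136% of a library. Genes with a mean below 0.5 FPKM were left out. The log2(FPKM + 1) values were fitted in limma 3.58.1 (R 4.3.3) with 1 mean for each of the 4 groups, a trend in the variance and Benjamini-Hochberg adjustment over 12279 genes, with 0.05 as the threshold. This scale understates changes of low genes. The members named with full values are the 3 of each of 7 roles with the smallest p in any comparison, and 21 alternatives were tried. Members and lists were chosen with earlier results of these data known. Promoters came from RefSeq (GRCm38.p6).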

Additional observations from a re-analysis of the deposited data

Results flagged for a closer look

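For 11 of the 40 members the LiCl responses of HSF1 KO and WT MEF differed by the test of the difference itself (limma, adjusted p under 0.05), given as the HSF1 KO response minus the WT response on the log2 scale. Above 0 lay 10% of the members, against 16.1% of all genes tested, and below 0 lay 17.5%, against 15.3%, by the same test. The difference was above 0 for Atg13 (0.40), Gabarapl1 (0.39), Calcoco1 (0.95) and Bnip3 (0.64). It was below 0 for Atg14 (-0.38), Wipi1 (-0.47), Atg3 (-0.44), Atg12 (-0.27), Gabarap (-0.38), Sqstm1 (-0.88) and Tax1bp1 (-0.33). Of these 11, Sqstm1 and Bnip3 passed under all 20 alternatives run for this test.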

How the results depend on the processing

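Of 87 calls of members in the 5 comparisons, 47 passed under every alternative and 22 were lost when 1 library was left out. The alternatives also change how many of all genes pass, and those shares are not given here. The counts below therefore describe the members alone. After median-of-ratios scaling 17 members fell with LiCl in HSF1 KO MEF, in place of 9. Between HSF1 KO and WT MEF with LiCl, the members that were higher numbered 0 with only the leading transcript of each gene, 3 with the replicate block, 3 without the 4 unnumbered libraries and 1 to 3 when each library was left out. Without LiCl, the higher members numbered 1 with the replicate block (Gabarap) and 0 to 1 with a library left out. The lower members without LiCl numbered 12 with only the compared groups, 10 with the leading transcript, 12 without the 4 unnumbered libraries and 10 to 19 with a library left out. For the difference between the LiCl responses, the leading transcript gave 1 higher and 4 lower members, and leaving out a library gave 3 to 5 lower ones. The leading transcript also turned the direction of Atg13 with LiCl in WT MEF (0.068), of Atg13 in HSF1 KO against WT MEF without LiCl (0.47), of Atg13 in the difference of the responses (-0.55), and of Nbr1 in HSF1 KO against WT MEF without LiCl (0.038). For Atg13 its 2 transcripts exchanged shares between libraries, and for Nbr1 the cause was not tested.

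With the replicate number as a block, the members that were higher and lower numbered 12 and 11 with LiCl in HSF1 KO MEF, 15 and 12 with LiCl in WT MEF, 3 and 14 between genotypes with LiCl, 1 and 19 without LiCl, and 4 and 7 for the difference of the responses. Residuals of libraries with the same number 1 or 2 correlated at -0.01 to 0.138 over 12 pairs, those of 2 unnumbered libraries at 0.125 to 0.195 over 6 pairs and those of different numbers at -0.169 to 0.14 over 36 pairs. Of the 12 pairs numbered 1 or 2, 1 was over 0.1, so the numbers were not read as a pairing, while all 6 pairs of unnumbered libraries were over 0.1, so these libraries deviated together across the groups. The depth in reads is unknown, and the precision rests on 3 libraries a group.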
